A study of Mus musculus with 24 samples.

Results

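The striatum of mice that carried the Q175 allele and lacked Tyrobp was compared with the striatum of wild-type mice. The members were the libraries that the genotype labels place in these groups, 12 of the 24 libraries of the study, with 6 on each side. The first group is labelled Q175 heterozygote;Tyrobp-KO and is called the double mutant here. The second is labelled WT. Each group held 3 male and 3 female mice of the strain C57BL/6, with 1 library per animal, and the labels state no age. Q175 is a knock-in allele in which the mouse's own Huntingtin gene (Htt) carries a long CAG repeat, here on 1 of the 2 copies, and Tyrobp-KO is a deletion of Tyrobp, for which the labels name no Cre or restriction to a cell type. The other 12 libraries came from Tyrobp-KO mice and from Q175 heterozygote mice, again 6 of each. They entered the same fit, where they also bear on which genes had enough reads and on the estimate of spread. They are used to show which of the double mutant's differences from WT were also present in either single mutant. A direct test of the double mutant against Q175 heterozygotes is given beside these.

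Huntington's disease damages the striatum early, and its projection neurons, the spiny GABAergic cells that make up most of the striatum, lose the expression of many of the genes that define them. These neurons send either the direct pathway, marked by the D1 dopamine receptor and substance P, or the indirect pathway, marked by the D2 dopamine receptor, an adenosine receptor and enkephalin. Tyrobp (also called DAP12) is a small membrane adaptor that carries the signal of microglial receptors such as Trem2 through the kinase Syk, and microglia need it to take on the state known from models of neurodegeneration, in which genes such as Clec7a, Itgax and Cst7 are high.

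Total counts, in units of 1e6 reads, were 25.5 to 30.6 in the double mutant and 26.6 to 32.4 in WT. The defining markers of the striatum were present in all 12 libraries: the 29 projection neuron genes summed to 11500 to 25810 CPM, which is reads per 1e6 reads of the library after TMM scaling. Tissue from outside the striatum varied between libraries. The 15 choroid plexus genes summed to 45.2 to 83.2 CPM in WT, and double mutant replicates 2, 4 and 6 lay above that range at 225, 601 and 637 CPM. In Q175 heterozygotes the sum ran from 40.5 to 4380 CPM. The 15 genes of cortical excitatory neurons summed to 353 to 1760 CPM in the double mutant and 397 to 1534 CPM in WT. The animal numbers of all double mutants and all Tyrobp-KO mice begin with a letter that no WT number has, so anything that letter marks cannot be told apart from genotype in this comparison. No Q175 heterozygote number begins with it either, so the same limit holds for the double mutant against Q175 heterozygotes. The number of WT replicate 3, unlike the other WT numbers, begins with the letter of the Q175 heterozygote numbers. Nothing in the labels describes breeding or litters. In bulk tissue, fewer cells of a type and less RNA per cell cannot be told apart.

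The level of Tyrobp matched the labels, while counts per gene cannot show the CAG repeat of Htt. Tyrobp (chromosome 7, 30413760 to 30417585, the coordinates of the deposited table) had 6.56, 7.74 and 9.89 CPM as the lowest, median and highest of the 6 WT libraries, and 0.218, 0.252 and 0.323 CPM in the double mutant. The groups were far apart, with a log2 fold change of -4.89 ± 0.19 (SE) and an adjusted p of 2.01e-16 from edgeR's quasi-likelihood test with Benjamini-Hochberg adjustment, which is the source of every adjusted p given here. Htt (chromosome 5, 34761740 to 34912534), whose reads come from both the normal and the expanded allele, had 209, 228 and 233 CPM in WT and 162.5, 169 and 178 CPM in the double mutant. All 6 double mutants lay below all 6 WT libraries (log2 fold change -0.41 ± 0.06, adjusted p = 1.47e-05). In Q175 heterozygotes with Tyrobp the Htt difference from WT was -0.46 ± 0.06 on the same scale.

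Of 19667 genes tested, 1857 (9.44%) passed the threshold of an adjusted p under 0.05 in the double mutant against WT, 767 higher (3.9%) and 1090 lower (5.54%). Most of these differences were small. The median size was 0.41 on the log2 scale, 232 genes differed by more than 1 (70 higher and 162 lower), and 849 (45.7%) had all 6 double mutant libraries on one side of all 6 WT libraries. A gene was counted as lying at the WT level where it did not pass the threshold and the 90% interval of its log2 fold change stayed within 0.3 of 0. This held for 7405 genes (37.7%). The other 10405 genes (52.9%) were undetermined, meaning that these libraries neither separated them from WT nor bounded them near it. Without the 3 double mutant libraries that were high in choroid plexus genes, 3 libraries were left on that side and 807 genes passed, 289 higher and 518 lower.

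**Figure D1:**
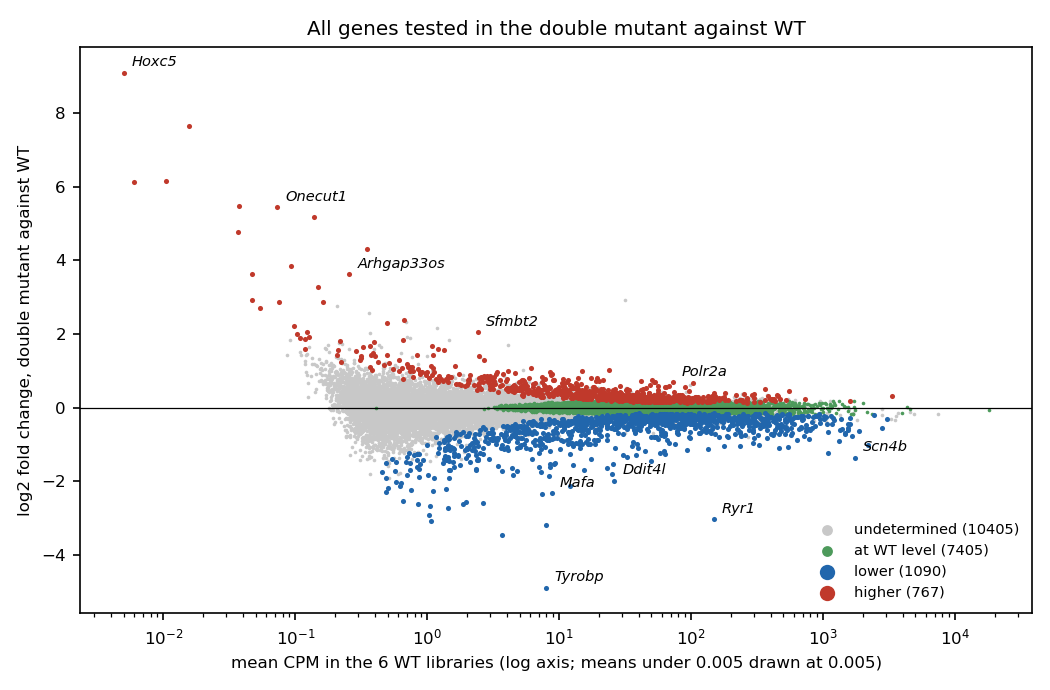
Log2 fold change of each of the 19667 genes tested (double mutant against WT) plotted against its mean CPM in the 6 WT libraries on a log axis, coloured by class. The 1090 lower genes include abundant ones such as Scn4b, the largest rises were in genes with almost no reads in WT, and Tyrobp stands lowest at -4.89.

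With all libraries fitted, most genes that passed in Q175 heterozygotes also passed in the double mutant. Q175 heterozygotes and the double mutant were each compared with the same 6 WT libraries, so the 2 sets of values share those libraries and are set side by side only. In Q175 heterozygotes 1893 genes (9.63%) passed the threshold against WT. In the double mutant 1230 of them (65% of the Q175 set and 66.2% of the double mutant set) passed in the same direction, and 0 passed in the opposite one. Another 267 (14.1%) were at the WT level in the double mutant, and 396 (20.9%) were undetermined. Genes lower in Q175 heterozygotes were lower in the double mutant in 768 cases (71.4% of them) and at the WT level in 105 (9.76%). Genes higher in Q175 heterozygotes were higher in the double mutant in 462 cases (56.5%) and at the WT level in 162 (19.8%).

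The median size in Q175 heterozygotes was 0.22 on the log2 scale for the 267 genes, 0.45 for the 1230 that passed in both and 0.47 for the 396 undetermined genes. The class of 267 admits only genes measured with a narrow interval, which can also pass at small differences. In the direct test of double mutant against Q175 heterozygote, 1 of the 267 passed (Mpeg1). The count of 267 also moved with single libraries: it was 138 without WT replicate 1, 152 without WT replicate 2 and 171 without WT replicate 6. In the direct test over all genes, 31 (0.158%) passed, 9 higher and 22 lower in the double mutant. Deletion of Tyrobp alone gave 23 genes (0.117%) against WT, of which 21 lay within 15 Mb of Tyrobp. A further 627 genes passed in the double mutant and not in Q175 heterozygotes. Of these, 22 passed the direct test between the 2 genotypes, and 385 had the same sign with an unadjusted p under 0.05 in Q175 heterozygotes.

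The genes that rose with the smallest p-values outside the surroundings of Tyrobp were developmental regulators nearly silent in WT and a few widely expressed genes. Onecut1, a homeodomain factor of liver and pancreas development, had 0, 0.0758 and 0.144 CPM as the lowest, median and highest in WT and 2.36, 3.33 and 4.29 CPM in the double mutant. Wt1, a zinc finger factor of kidney and gonad development, had 0.0355, 0.0946 and 0.324 CPM in WT and 3.52, 5.09 and 6.97 CPM in the double mutant. For both genes the groups were separated by a wide gap, with log2 fold changes of 5.45 ± 0.39 and 5.18 ± 0.36 (adjusted p = 1.36e-10 and 9.69e-11). Hoxc5, a factor of body patterning, had no read in any WT library and 1.45, 1.96 and 4.76 CPM in the double mutant, so its pooled level was at least 137-fold higher, taking 3 reads over the 6 WT libraries as the limit that a count of 0 allows. Hoxc4 had 3 reads over all 6 WT libraries and 732 over the double mutants, a ratio of 243 with a 95% counting interval of 82.7 to 1180. Hoxc4, Hoxc5 and Hoxc6 overlap or adjoin on chromosome 15, so how reads divide among them is uncertain.

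Among the genes of ordinary abundance, Polr2a, the largest subunit of RNA polymerase II, had 66.6, 73.6 and 79.3 CPM in WT and 113, 118 and 124 CPM in the double mutant. The groups did not overlap (log2 fold change 0.70 ± 0.06, adjusted p = 2.53e-08). Sfmbt2, a Polycomb-associated protein with MBT repeats, had medians of 2.33 CPM in WT and 10.8 CPM in the double mutant (2.05 ± 0.20, adjusted p = 7.34e-08). Nagk, an N-acetylglucosamine kinase, and Cldn14, a tight junction claudin, were higher by 0.71 ± 0.07 and 1.68 ± 0.18. Pcdhb9, one of the clustered protocadherins that share sequence with their neighbours, was higher by 0.63 ± 0.07. In each of these 5 genes all 6 double mutants lay above all 6 WT libraries, and the Q175 heterozygote against WT gave 0.63 for Polr2a, 2.19 for Sfmbt2, 0.63 for Nagk, 1.65 for Cldn14 and 0.69 for Pcdhb9.

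The 10 genes that fell with the smallest p-values outside the surroundings of Tyrobp were all lower in Q175 heterozygotes too. Ddit4l, an inhibitor of mTOR signalling, had 19.1, 25.2 and 37.3 CPM in WT and 5.88, 6.64 and 7.16 CPM in the double mutant. Mafa, a basic leucine zipper transcription factor, had 8.46, 8.72 and 9.14 CPM in WT and 1.09, 1.89 and 2.25 CPM in the double mutant. Neither gene's groups overlapped, and their log2 fold changes were -1.98 ± 0.12 (adjusted p = 5.41e-12) and -2.32 ± 0.16 (1.27e-10). Phex, a membrane endopeptidase, fell by 1.87 on the log2 scale, Plk5, a Polo-like kinase of neurons, by 1.30, Itga9, an integrin alpha subunit, by 1.09, Jag1, a Notch ligand, by 0.89, Arpp19, a regulator of protein phosphatase PP2A, by 0.89 and Rgs14, a regulator of G protein signalling, by 0.88. The predicted genes Gm19410 and Gm36737 fell by 1.16 and 1.73. All 10 genes had every double mutant below every WT library, and all 10 had passed in the same direction in Q175 heterozygotes, from -0.84 for Arpp19 to -2.33 for Mafa.

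Promoter windows are shown for 5 genes that represent the main patterns: 1 gene switched on from almost no reads (Onecut1), 2 that fell (Ddit4l and Scn4b) and 2 microglial genes that differed between the double mutant and Q175 heterozygotes (Lyz2 and Mpeg1, described further on). Each is the 250 bases before the RefSeq start of the gene on GRCm38.p6, read 5′ to 3′ on the gene's strand, with every CG dinucleotide in capitals. The windows lie at chr9:74861671-74861920 (plus strand), chr3:137623422-137623671 (plus), chr9:45138374-45138623 (plus), chr10:117282273-117282522 (minus) and chr19:12460520-12460769 (plus).
Onecut1: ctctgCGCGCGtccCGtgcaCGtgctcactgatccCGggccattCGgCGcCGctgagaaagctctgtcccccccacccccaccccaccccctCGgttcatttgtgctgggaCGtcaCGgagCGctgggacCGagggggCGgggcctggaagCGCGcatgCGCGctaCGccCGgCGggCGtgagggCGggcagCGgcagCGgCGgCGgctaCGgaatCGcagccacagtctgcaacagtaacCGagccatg
Ddit4l: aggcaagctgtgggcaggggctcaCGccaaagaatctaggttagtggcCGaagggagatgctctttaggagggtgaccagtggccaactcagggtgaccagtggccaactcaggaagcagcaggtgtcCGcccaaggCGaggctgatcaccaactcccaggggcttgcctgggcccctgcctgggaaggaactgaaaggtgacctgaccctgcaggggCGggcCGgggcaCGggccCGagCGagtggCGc
Scn4b: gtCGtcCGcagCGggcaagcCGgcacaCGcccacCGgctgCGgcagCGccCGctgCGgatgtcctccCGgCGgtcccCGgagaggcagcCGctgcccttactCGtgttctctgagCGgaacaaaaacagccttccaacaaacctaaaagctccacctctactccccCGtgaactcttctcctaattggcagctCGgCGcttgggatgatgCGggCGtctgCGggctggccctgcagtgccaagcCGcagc
Lyz2: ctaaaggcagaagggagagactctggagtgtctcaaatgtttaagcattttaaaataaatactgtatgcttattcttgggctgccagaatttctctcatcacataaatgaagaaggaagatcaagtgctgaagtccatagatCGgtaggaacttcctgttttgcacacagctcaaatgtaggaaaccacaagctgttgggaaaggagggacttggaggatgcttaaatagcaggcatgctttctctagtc
Mpeg1: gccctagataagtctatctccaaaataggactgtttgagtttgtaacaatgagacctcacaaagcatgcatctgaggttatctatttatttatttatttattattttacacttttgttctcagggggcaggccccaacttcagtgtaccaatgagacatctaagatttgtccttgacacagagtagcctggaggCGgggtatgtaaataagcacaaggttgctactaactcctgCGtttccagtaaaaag
Onecut1 holds 31 CG dinucleotides, Scn4b 23, Ddit4l 10, Mpeg1 2 and Lyz2 1, against a median of 6 over all 32851 windows of that length in the RefSeq table. At least 31 were found in 5.19% of all windows, at least 23 in 13.3% and at least 1 in 92.1%. Only 65.9% of the genes tested matched a window, and no comparison between classes of genes was made.

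The identity genes of projection neurons stayed low in the double mutant. Of the 29 genes of this list, 24 were lower than WT, 0 higher, 1 at the WT level and 4 undetermined, with a median log2 fold change of -0.58, against a median of 0.01 over all genes tested and 5.54% of all genes lower. Scn4b, the sodium channel beta-4 subunit, had 1243, 1833 and 1872 CPM in WT and 539, 714 and 818 CPM in the double mutant (log2 fold change -1.36 ± 0.14, adjusted p = 7.98e-07). Pde10a, the striatal phosphodiesterase, chosen after its values were seen, had 1565, 2173 and 2661 CPM in WT and 845, 1095 and 1322 CPM in the double mutant (-1.02 ± 0.15, adjusted p = 9.42e-05). The groups did not overlap for either gene. Itpr1, the calcium release channel of the endoplasmic reticulum, and Arpp21, a striatal phosphoprotein, were lower by -0.56 ± 0.07 and -0.90 ± 0.11. Foxp2, a forkhead factor of these neurons, was the 1 member at the WT level, at 78.6 to 120 CPM in WT and 84.2 to 103 CPM in the double mutant.

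All 23 members that were lower in Q175 heterozygotes were lower in the double mutant, and the medians of the list against WT were -0.56 in Q175 heterozygotes, -0.58 in the double mutant and -0.26 in Tyrobp-KO, where 0 members passed. None of the 29 passed the direct test of double mutant against Q175 heterozygote. WT replicate 5 had the lowest summed level of the list among WT, and without it 27 of the 29 were lower. Without the 3 libraries high in choroid plexus genes 15 were lower, with a median of -0.59.

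The pathway markers split unevenly. Of 7 indirect pathway genes tested, 4 were lower, 2 were at the WT level and 1 was undetermined (median -0.73). Among all genes these shares were 5.54%, 37.7% and 52.9%. Penk, the enkephalin precursor, had 805, 1129 and 1263 CPM in WT and 326, 456 and 591 CPM in the double mutant, with no overlap (-1.23 ± 0.16, adjusted p = 1.7e-05). Adora2a, the adenosine receptor of these cells, was lower by -1.004 ± 0.158 and Gpr6, an orphan receptor of these cells, by -0.73 ± 0.12. Drd2, the D2 receptor, chosen after its values were seen, was lower by -0.73 ± 0.16, with 1 double mutant inside the WT range. Ptprm, a receptor phosphatase, was at the WT level (-0.05 ± 0.05).

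Of 9 direct pathway genes, 3 were lower, where 5.54% of all genes were, 2 were at the WT level and 4 were undetermined (median -0.07). Drd1, the D1 receptor, had 214, 308 and 354 CPM in WT and 134, 164 and 210 CPM in the double mutant (-0.82 ± 0.15, adjusted p = 0.000777), and the groups did not overlap. Chrm4, the M4 muscarinic receptor, and Sfxn1, a mitochondrial serine carrier, were lower by -0.78 ± 0.12 and -0.31 ± 0.06. Tac1, the substance P precursor, also chosen after its values were seen, lay between 131 and 208 CPM in WT and between 127 and 210 CPM in the double mutant, and was undetermined. Slc35d3, which carries D1 receptors towards the surface, was at the WT level. The difference between the pathways was not tested.

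**Figure D2:**
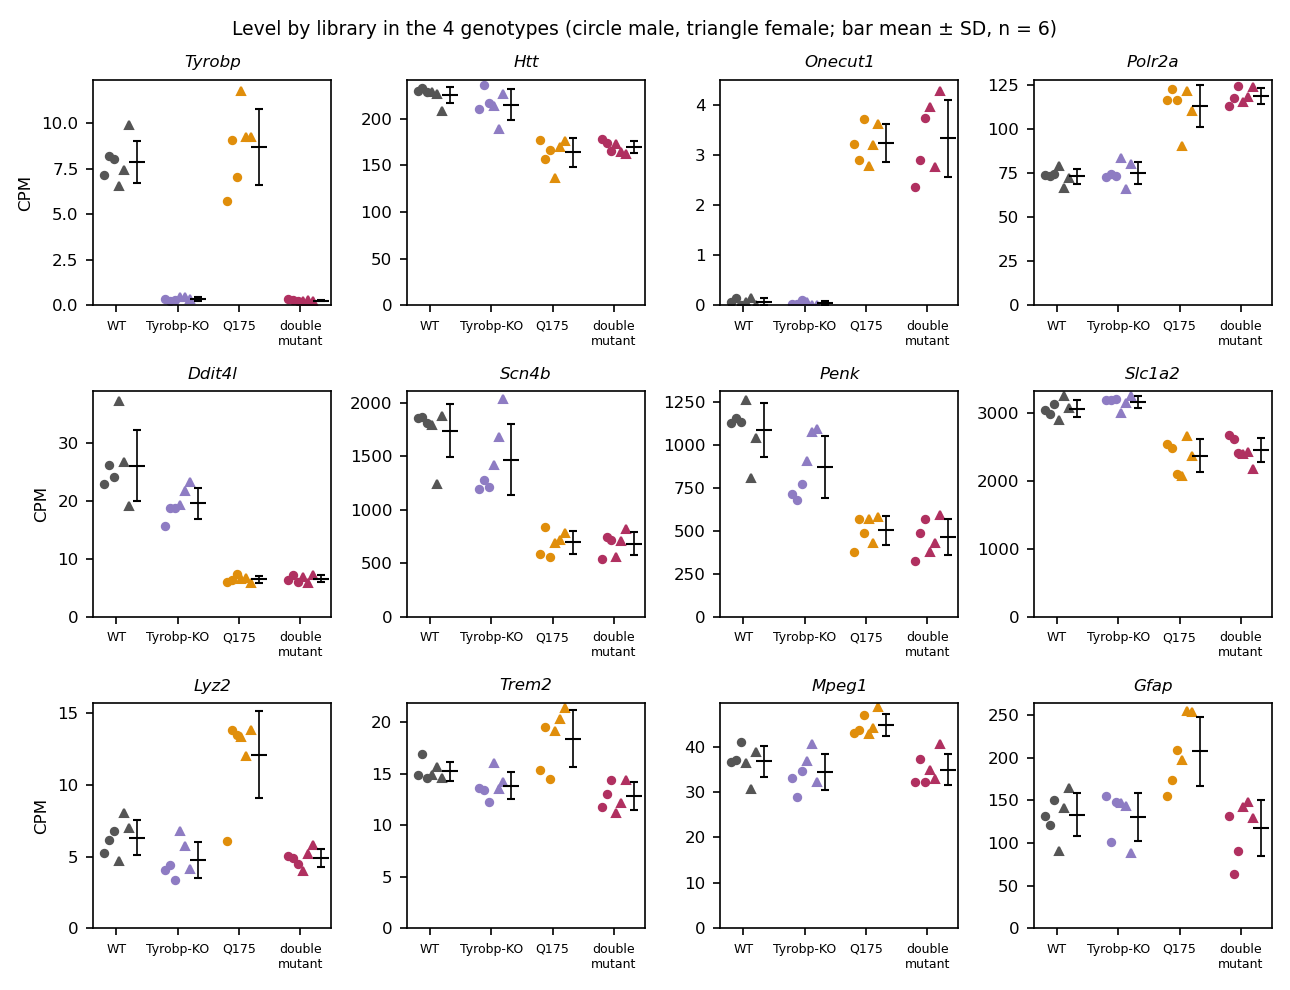
CPM of 12 genes in each of the 24 libraries, in panels by gene, with genotype on the horizontal axis, circles for males, triangles for females and bars for the mean ± SD of 6 libraries. Htt, Onecut1, Polr2a, Ddit4l, Scn4b, Penk and Slc1a2 differ from WT in the double mutant and in Q175, while Mpeg1 lies within the WT range of 30.7 to 41.1 CPM in all 6 double mutants and above it in all 6 Q175 libraries.

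Genes of neuronal signalling were lower in part, and bulk tissue does not assign them to a cell type. Of 16 genes for calcium stores and calmodulin kinases, 8 were lower and 4 were at the WT level, against 5.54% and 37.7% of all genes (median -0.32). Homer1, a scaffold that ties glutamate receptors to calcium stores, had 271, 373 and 461 CPM in WT and 189, 216 and 228 CPM in the double mutant (-0.83 ± 0.10, adjusted p = 6.14e-06), with no overlap. Atp2b1, a calcium pump of the plasma membrane, was lower by -0.64 ± 0.09. Camk2a, the calmodulin kinase of the postsynapse, was lower in Q175 heterozygotes (-0.26 ± 0.07) and at the WT level in the double mutant (-0.17 ± 0.07), and the direct test between those genotypes gave 0.09 ± 0.07 with an adjusted p of 0.858. With the cortical level as a covariate Camk2a passed against WT (adjusted p = 0.00773, the lowest over its alternatives, which reached 0.547).

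Of 18 genes of cyclic nucleotide signalling, 3 were lower, 1 was higher and 6 were at the WT level, against 5.54%, 3.9% and 37.7% of all genes. Prkcb, a protein kinase C, fell from a WT median of 877 CPM to 604 CPM (-0.50 ± 0.06, adjusted p = 4.58e-06), and Pde7b, a cyclic AMP phosphodiesterase, was lower by -0.56 ± 0.13. Of 32 voltage-gated channel genes, 7 were lower, 1 was higher and 10 were at the WT level, with Kcnk2, a potassium leak channel, lower by -0.46 ± 0.09 and Cacnb2, a calcium channel subunit, by -0.42 ± 0.09. Of 35 glutamate and GABA receptor genes, 8 were lower and 13 were at the WT level. Gabrd, the delta subunit of extrasynaptic GABA-A receptors, fell from a median of 131 CPM to 81.8 CPM (-0.66 ± 0.08, adjusted p = 5.08e-06), and Grik2, a kainate receptor subunit, from 185 to 110 CPM (-0.80 ± 0.10). For these 2 receptor genes no double mutant reached the WT range. Gabbr1, a subunit of the GABA-B receptor, was at the WT level (-0.10 ± 0.05).

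Of 24 genes of synaptic vesicle release 2 were higher, 1 lower, 11 at the WT level and 10 undetermined, where 37.7% of all genes were at the WT level and 52.9% undetermined. Of 20 immediate early genes, which neurons switch on within minutes of activity, 5 were lower, where 5.54% of all genes were. The other 15 were undetermined and none was at the WT level (median -0.52). Egr2 had 6.16, 24.2 and 37.9 CPM in WT and 2.20, 7.08 and 12.3 CPM in the double mutant, with 3 double mutants inside the WT range (-1.80 ± 0.46, adjusted p = 0.0154). The spread of this list within WT was wide, with summed levels of 788 to 2324 CPM. The list's counts depended on which libraries were fitted: 1 of 20 was lower when only the 12 libraries compared were fitted, and 0 without the 3 double mutants high in choroid plexus genes. Its median was -0.96 in males alone and -0.02 in females alone.

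Developmental transcription factors included the largest rise of all genes in the fit over all 24 libraries, that of Hoxc5. With no WT read, its log2 fold change depended on the fit, from 6.97 to 9.47 over the alternatives, where Hoxc4 reached 9.89. Of 82 such genes listed, 22 had enough reads to be tested, and since a gene silent in WT could enter only through genotypes in which it is high, the counts over these 22 describe them and are no measure of the list. Among the 22, 11 were higher, 0 lower, 1 at the WT level and 10 undetermined. Beside Wt1, Onecut1, Hoxc4 and Hoxc5 they included Hoxc6, a Hox gene chosen after its values were seen, with 1 read over the 6 WT libraries and 120 over the double mutants (a ratio of 119, 95% counting interval 21 to 4750). Fitting only the 12 libraries compared left 13 genes tested, of which 6 were higher. The 60 listed genes under the filter together had 27 to 85 reads in a WT library and 72 to 143 in a double mutant library, and these ranges overlapped.

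Of 29 Polycomb subunits and H3K27 demethylases, whose complexes keep such regulators silent, 3 were higher, 0 lower, 21 at the WT level and 5 undetermined. Among all genes these shares were 3.9%, 5.54%, 37.7% and 52.9%. Cbx8, a chromodomain reader of H3K27 methylation, had 6.18, 8.66 and 10.4 CPM in WT and 11.0, 17.5 and 20.1 CPM in the double mutant (0.97 ± 0.14, adjusted p = 3.31e-05), and its groups did not overlap. Phf1, an accessory subunit, was higher by 0.26 ± 0.08 (adjusted p = 0.0347) and missed the threshold in fits without any 1 of WT replicates 2, 3, 4 and 5 or double mutant replicates 2, 3, 4 and 6, with adjusted p up to 0.0954. Bmi1, a core subunit of the first Polycomb complex, was higher in Q175 heterozygotes (0.23 ± 0.06) and at the WT level in the double mutant (0.10 ± 0.06).

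Several microglial genes that were high in Q175 heterozygotes were not high in the double mutant. Of 24 disease-associated microglial genes tested, 9 were higher in Q175 heterozygotes than in WT. In the double mutant 2 of those 9 were higher than WT (Timp2 and Ctsl), 1 was at the WT level (Ctsd) and 6 were undetermined. The medians of the list against WT were 0.23 in Q175 heterozygotes and -0.04 in the double mutant. Lyz2, the lysozyme of myeloid cells, had 4.71, 6.48 and 8.02 CPM in WT, 3.99, 4.95 and 5.81 CPM in the double mutant and 6.08, 13.4 and 13.9 CPM in Q175 heterozygotes. All 6 double mutants lay below all 6 Q175 libraries (direct test -1.30 ± 0.17, adjusted p = 4.88e-05), and against WT the double mutant was undetermined (-0.37 ± 0.17, adjusted p = 0.189).

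Clec7a, the beta-glucan receptor Dectin-1, had 0.152, 0.600 and 0.791 CPM in WT, 0.0683, 0.153 and 0.835 CPM in the double mutant and 2.44, 2.85 and 3.33 CPM in Q175 heterozygotes. The Q175 libraries stood apart from both other groups (direct test -3.42 ± 0.51, adjusted p = 6e-04). Against WT the double mutant's Clec7a was undetermined (-1.06 ± 0.53, adjusted p = 0.242), and without double mutant replicate 6, its highest library, it passed as lower (-1.78, adjusted p = 0.0346, against up to 0.401 without any other library). Itgax, the integrin CD11c, and Cst7, cystatin F, showed direct differences of -2.94 ± 0.57 and -2.76 ± 0.54 (adjusted p = 0.0185 for each), and both were undetermined against WT. In all 4 genes every double mutant library lay below every Q175 library.

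Timp2, an inhibitor of metalloproteinases that other brain cells also express, stayed high: 223, 251 and 279 CPM in WT against 297, 327 and 356 CPM in the double mutant (0.38 ± 0.06, adjusted p = 6.42e-05). Ctsl, cathepsin L, was higher by 0.25 ± 0.06 with 3 double mutants inside the WT range. Gpnmb, a glycoprotein of phagocytes, was higher by 0.77 ± 0.25 (adjusted p = 0.0457) but missed the threshold without any 1 of WT replicates 1, 2, 3, 4 and 6 or double mutant replicates 1, 4 and 5, with adjusted p up to 0.139. Ctsd, cathepsin D, had 108, 120 and 131 CPM in WT and 102, 116 and 124 CPM in the double mutant and was at the WT level (-0.04 ± 0.06), where Q175 heterozygotes had 114, 144 and 157 CPM.

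Genes that mark microglia in the healthy brain were lower in part. Of 20 homeostatic microglial genes, 3 were lower, among them Mertk and Tgfbr1, 9 were at the WT level and 8 were undetermined. The shares over all genes were 5.54%, 37.7% and 52.9%. A negative log2 fold change was found in 17 of the 20 (median -0.16). Only 1 was lower when only the 12 libraries compared were fitted, and 0 in males alone and in females alone. Their summed levels overlapped, at 795 to 893 CPM in the double mutant and 850 to 971 CPM in WT. Mertk, a receptor for engulfment of dead cells, was lower by -0.22 ± 0.06 (adjusted p = 0.0201) and missed the threshold without WT replicate 2 or 3 or double mutant replicate 4, with adjusted p up to 0.0832. Tgfbr1, a receptor for TGF-beta, was lower by -0.23 ± 0.07 and missed it without any 1 of WT replicates 3, 4 and 6 or double mutant replicates 1, 3, 4 and 5 (up to 0.0751). Whether the number of microglia differed was not tested.

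Around the adaptor itself, of 19 genes of the Tyrobp receptor and signalling chain 1 was lower (Cd33, which lies near Tyrobp and is taken up below), 3 were at the WT level and 15 were undetermined (median -0.16). Among all genes 5.54% were lower, 37.7% at the WT level and 52.9% undetermined. Trem2, the receptor that signals through Tyrobp, had 14.5, 14.9 and 17.0 CPM in WT, 11.1, 12.6 and 14.4 CPM in the double mutant and 14.5, 19.3 and 21.3 CPM in Q175 heterozygotes. The double mutants lay under every library of both other groups. The direct test against Q175 heterozygotes passed (-0.51 ± 0.09, adjusted p = 0.00426). The test against WT did not (-0.25 ± 0.09, adjusted p = 0.0809), except without double mutant replicate 3, where it gave an adjusted p of 0.0406 (up to 0.212 without any other library). Ptpn6, the phosphatase SHP-1, showed the same separation from WT with an adjusted p of 0.118 (-0.27 ± 0.11). Inpp5d, the inositol phosphatase SHIP1, was at the WT level.

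C1qb and Adgre1 fell under WT among the phagocyte genes. Of 21 complement and phagocytic receptor genes, these 2 were lower, where 5.54% of all genes were, 3 were at the WT level and 16 were undetermined (median -0.22, against 0.27 in Q175 heterozygotes). The lower count was 4 without WT replicate 5, and 0 in males alone and in females alone. C1qb, a chain of the complement initiator C1q, had 39.2, 42.6 and 50.5 CPM in WT and 30.0, 33.5 and 41.1 CPM in the double mutant, with 1 double mutant inside the WT range (-0.34 ± 0.08, adjusted p = 0.00417). Adgre1, the macrophage marker F4/80, had 5.09, 5.54 and 6.22 CPM in WT and 3.27, 3.76 and 4.82 CPM in the double mutant, with no overlap (-0.54 ± 0.14, adjusted p = 0.0146). C1qa was lower by a similar amount without passing (-0.31 ± 0.11, adjusted p = 0.0915), though it passed without WT replicate 5 (0.0399, and up to 0.194 without any other library). Both C1qb and Adgre1 also passed the direct test against Q175 heterozygotes (-0.39 ± 0.08 and -0.71 ± 0.14).

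Lag3, an immune checkpoint receptor, followed them with 5.34, 6.59 and 7.96 CPM in WT and 4.28, 4.82 and 5.23 CPM in the double mutant (-0.48 ± 0.11, adjusted p = 0.00526), and was also lower in Tyrobp-KO (-0.62, adjusted p = 0.0098). Mpeg1, the pore-forming perforin-2 of macrophages, behaved otherwise: it had 30.7, 36.8 and 41.1 CPM in WT and 32.2, 33.8 and 40.5 CPM in the double mutant, all 6 inside the WT range (-0.07 ± 0.08), while Q175 heterozygotes had 42.7, 43.8 and 48.6 CPM. It was the gene at the WT level that passed the direct test (-0.36 ± 0.08, adjusted p = 0.0363). Outside the surroundings of Tyrobp 11 genes passed that direct test. They were Lyz2, Lag3, Clec7a, Trem2, Cst7, Itgax, C1qb, Adgre1, Mpeg1, the pseudogene Pdcd5-ps and the antisense gene Gm10561, whose reads cannot be assigned to a strand with certainty.

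**Figure D3:**
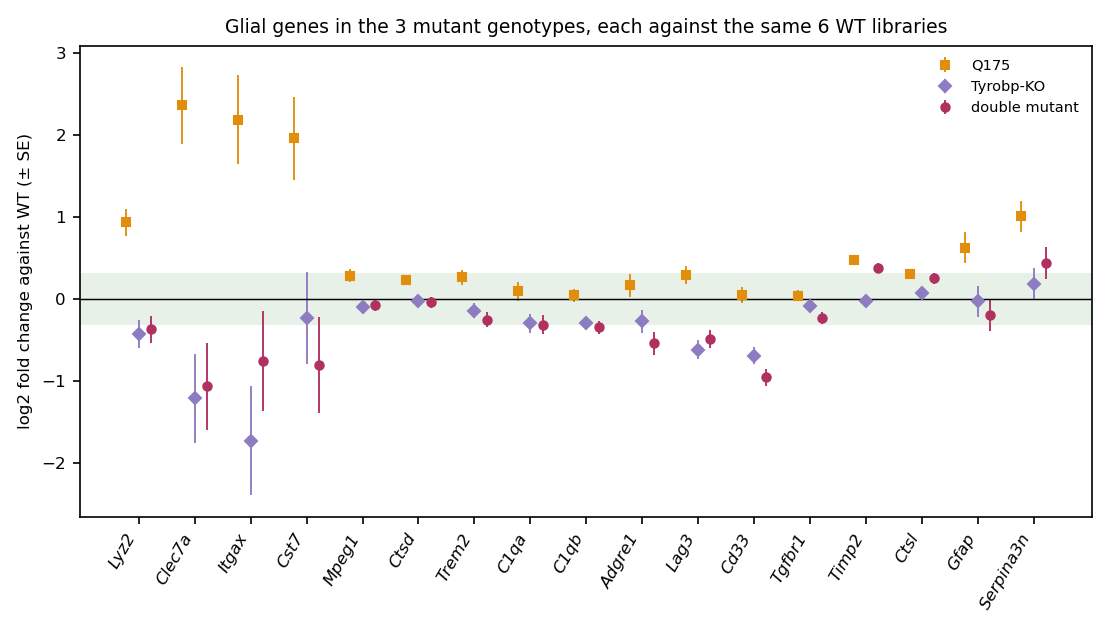
Log2 fold change ± SE against the same 6 WT libraries for 17 glial genes in Q175 (squares), Tyrobp-KO (diamonds) and the double mutant (circles), with the band from -0.3 to 0.3 shaded. Lyz2, Clec7a, Itgax and Cst7 are above 0 in Q175 and below 0 in the double mutant, and Timp2 and Ctsl are above WT in both Q175 and the double mutant.

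Lysosomal genes mostly lay at the WT level. Of 25 such genes, 21 were there, against 37.7% of all genes, 1 was lower and 3 were undetermined (median 0.07). The margin of 0.3 admits small shifts, and 20 of the 25 had a positive log2 fold change. Their summed level was 2982, 3117 and 3237 CPM as the lowest, median and highest in WT. It was 3198, 3330 and 3392 CPM in the double mutant and 3288, 3387 and 3541 CPM in Q175 heterozygotes. The 5 genes that were higher in Q175 heterozygotes were all at the WT level in the double mutant. In the direct test between the 2 genotypes, 0 of the 25 passed. Lamp2, a lysosomal membrane protein, had 77.8, 84.3 and 90.3 CPM in WT and 84.2, 91.9 and 102 CPM in the double mutant (0.13 ± 0.07, adjusted p = 0.248), with 91.2, 101 and 115 CPM in Q175 heterozygotes. The direct difference of Lamp2 between those genotypes did not pass (-0.15 ± 0.07, adjusted p = 0.818).

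Both astrocyte lists held lower genes and no higher one, where 5.54% of all genes were lower and 3.9% higher. At the WT level were 37.7% of all genes, and 52.9% were undetermined. Fitting only the 12 libraries compared gave 1 higher homeostatic gene, and males alone gave 1 higher reactive gene. Of 19 homeostatic astrocyte genes, 6 were lower, 8 were at the WT level and 5 were undetermined. Slc1a2, the main glutamate transporter, had 2890, 3061 and 3257 CPM in WT and 2177, 2422 and 2675 CPM in the double mutant, with no overlap (-0.32 ± 0.06, adjusted p = 0.000771). Slc4a4, a bicarbonate transporter, was lower by -0.43 ± 0.09, and Glul, glutamine synthetase, by -0.30 ± 0.07. Of 24 reactive astrocyte genes, 3 were lower, 0 higher, 4 at the WT level and 17 undetermined. Gfap, the filament protein of reactive astrocytes, chosen after its values were seen, had 90.9, 136 and 164 CPM in WT, 64.1, 130 and 148 CPM in the double mutant and 155, 203 and 255 CPM in Q175 heterozygotes. Gfap was undetermined against WT (-0.20 ± 0.19, adjusted p = 0.612), and although every double mutant lay under every Q175 library, the direct test gave an adjusted p of 0.151 (-0.82 ± 0.19). Fbln5, an extracellular matrix protein also made outside astrocytes, was lower by -1.17 ± 0.19 (adjusted p = 0.000156).

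The oligodendrocyte, endothelial and interneuron lists held 1 call each. The shares over all genes were 3.9% higher, 5.54% lower, 37.7% at the WT level and 52.9% undetermined. Of 15 oligodendrocyte precursor genes, 1 was higher and 8 were at the WT level. The 1 was Enpp6, a marker of newly forming oligodendrocytes, with 18.6, 20.5 and 25.9 CPM in WT and 27.8, 29.6 and 34.8 CPM in the double mutant (0.50 ± 0.11, adjusted p = 0.0033). Its groups did not overlap. Of 21 myelin genes 1 was lower and 7 were at the WT level. The lower count was 5 without WT replicate 5 and 4 with only the 12 libraries compared. It was 0 without the 3 double mutants high in choroid plexus genes and in each sex alone. Of 24 endothelial and pericyte genes 13 were at the WT level and 1 was lower, Pecam1 (CD31), with 5 of 6 double mutants under the WT range (-0.38 ± 0.09, adjusted p = 0.0041). Of 20 striatal interneuron genes 16 were undetermined, 3 were at the WT level and 1 was lower, the receptor kinase Kit (-0.33 ± 0.08, adjusted p = 0.00555).

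Against 37.7% of all genes at the WT level, the respiratory chain and chaperone lists had more members there, and the mitochondrially encoded and cholesterol lists about that share. That class admits only genes with a narrow interval, and the lists were not compared with genes of like abundance. Among all genes, 5.54% were lower and 3.9% higher. Of 44 nuclear-encoded respiratory chain genes, 35 were at the WT level, 8 were undetermined and 1 was higher (Cyc1, cytochrome c1, by 0.23 ± 0.06, adjusted p = 0.0177, which missed the threshold without WT replicate 4 or double mutant replicate 4, with values up to 0.0557). A positive log2 fold change was found in 38 of the 44 (median 0.07). The list summed to 6056 to 6299 CPM in the double mutant and 5477 to 6134 CPM in WT. Of 13 mitochondrially encoded genes 5 were at the WT level and 8 undetermined. Of 28 chaperones 18 were at the WT level, 4 were lower and 1 was higher, and the lowest p belonged to Hsp90b1, the chaperone GRP94 of the endoplasmic reticulum, with 270, 303 and 325 CPM in WT and 210, 227 and 230 CPM in the double mutant (-0.42 ± 0.06, adjusted p = 1.93e-05). Of 23 cholesterol synthesis genes 3 were lower and 9 were at the WT level. They were Msmo1, a sterol oxidase (-0.44 ± 0.09, adjusted p = 0.00295), Cyp46a1, the neuronal enzyme that clears cholesterol (-0.27 ± 0.07, 0.00671), and Idi1, an isomerase early in the pathway (-0.41 ± 0.11, 0.018, or 0.0535 without WT replicate 3).

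Antigen presentation and interferon genes could not be placed by these libraries. All 16 antigen presentation genes were undetermined, with 14 positive log2 fold changes and a median of 0.40, and 19 of 20 interferon response genes were undetermined, with 19 positive and a median of 0.31. The median of antigen presentation was 0.05 in males alone and 0.68 in females alone. For interferon response the males gave a median of -0.10 and the females 0.62, and it was 0.01 without the 3 double mutants high in choroid plexus genes. The difference between the sexes was not tested for these lists. Tap1, the peptide transporter, had 1.71, 2.52 and 3.45 CPM in WT and 1.81, 3.67 and 7.73 CPM in the double mutant (0.64 ± 0.22, adjusted p = 0.0681), with leave-one-out values of 0.0262 to 0.248, and it passed without double mutant replicate 1 or 3. Gbp3, a guanylate-binding protein, had 4.35, 5.04 and 7.98 CPM in WT and 5.30, 8.09 and 19.8 CPM in the double mutant (0.72 ± 0.25, adjusted p = 0.0782). In both genes 3 of 6 double mutants lay within the WT range.

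Of the genes that passed in Q175 heterozygotes and were at the WT level in the double mutant, the 6 of smallest p in Q175 were Zcchc2, Gmeb1, Zfp574, Gfm2, Mark2 and Tcf12. Zfp574 lies 5.3 Mb from Tyrobp. In the double mutant it passed as lower without WT replicate 4 or double mutant replicate 5 (adjusted p down to 0.0335) and by DESeq2 (0.0476). Zcchc2 had 20.8, 23.9 and 27.2 CPM in WT, 25.7, 27.04 and 27.9 CPM in the double mutant and 28.4, 31.0 and 33.4 CPM in Q175 heterozygotes. In the double mutant 4 libraries lay inside the WT range (0.16 ± 0.06, adjusted p = 0.102), and Zcchc2 passed without WT replicate 5 (0.0207, with values up to 0.213 when other libraries were left out). Gmeb1, a modulator of glucocorticoid response, gave -0.15 ± 0.06 in the double mutant and -0.30 ± 0.06 in Q175 heterozygotes. Neither gene passed the direct test between the 2 genotypes (adjusted p = 0.433 for Zcchc2 and 0.809 for Gmeb1), and the 90% intervals for the double mutant, 0.06 to 0.26 and -0.26 to -0.05, lay to one side of 0 within the margin of 0.3.

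Genes around Tyrobp formed a separate set. Within 15 Mb of Tyrobp on chromosome 7, 465 genes were tested and 69 passed (14.8%), 37 higher and 32 lower, against 9.31% of all other genes. Within 5 Mb the share was 45 of 207 (21.7%), and from 5 to 15 Mb it was 24 of 258 (9.3%). Of the 69, 20 also passed in Tyrobp-KO and 25 in Q175 heterozygotes. Nudt19, a coenzyme A hydrolase, had 41.5, 44.6 and 48.4 CPM in WT, 17.2, 19.3 and 21.6 CPM in the double mutant and 44.7, 48.9 and 56.6 CPM in Q175 heterozygotes, and its log2 fold changes against WT were -1.19 ± 0.07 in the double mutant and -1.21 in Tyrobp-KO. Zfp14, a zinc finger gene, was higher by 0.99 ± 0.09 in the double mutant and 1.17 in Tyrobp-KO. Dmkn, an epidermal secreted protein, was lower by -2.12 ± 0.16, and Cd33, a sialic acid receptor of microglia, by -0.95 ± 0.10. Arhgap33os, an antisense gene whose strand is uncertain here, was higher by 3.63 ± 0.29. Which of these follow from the loss of Tyrobp and which from the flanking chromosome of the deleted allele cannot be told apart.

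Ryr1, the calcium release channel first known from muscle, lies 1.4 Mb from Tyrobp and was low in all 3 mutant genotypes. It had 118, 152 and 163.3 CPM in WT, 22.8, 34.1 and 39.1 CPM in Q175 heterozygotes and 13.2, 19.9 and 20.4 CPM in the double mutant. Its log2 fold changes against WT were -2.01 in Tyrobp-KO, -2.19 ± 0.14 in Q175 heterozygotes and -3.04 ± 0.15 in the double mutant, and the double mutant lay below Q175 heterozygotes in the direct test (-0.85 ± 0.14, adjusted p = 0.00533). Pdcd5-ps, a processed pseudogene on chromosome 1, rose from a WT median of 0.494 CPM to 2.29 CPM in the double mutant (2.31 ± 0.23, adjusted p = 1.45e-07) and by 2.17 in Tyrobp-KO, and was at 0.24 ± 0.25 in Q175 heterozygotes. Its parent gene Pdcd5, named after its values were seen, lies within 15 Mb of Tyrobp, with -0.20 ± 0.08 in the double mutant (adjusted p = 0.144) and -0.42 in Tyrobp-KO (adjusted p = 0.0287). Reads can be split between these 2 copies, so both values are uncertain.

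**Figure D4:**
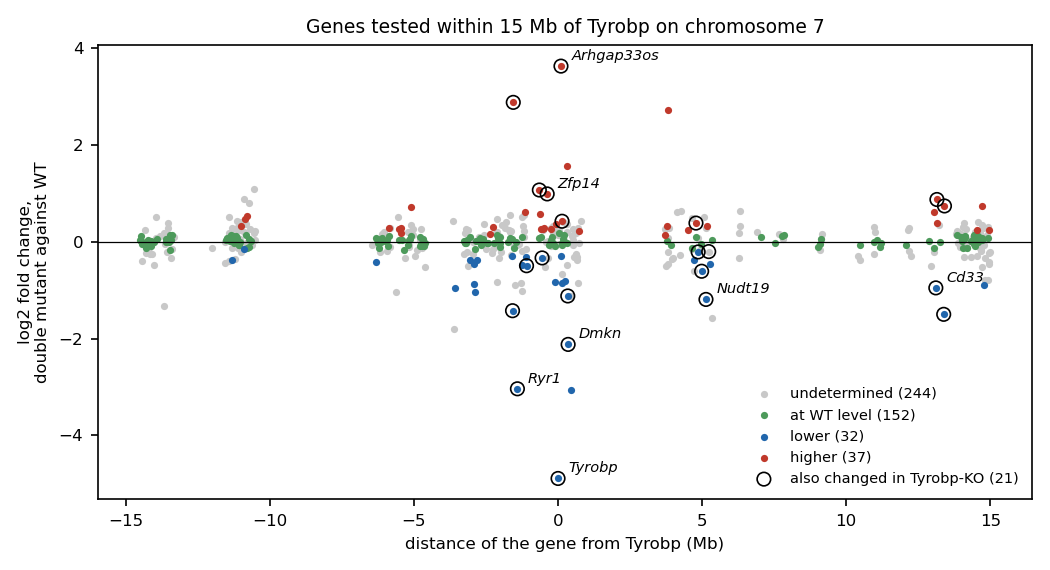
Log2 fold change in the double mutant against WT for the 465 genes tested within 15 Mb of Tyrobp, plotted against distance from Tyrobp in Mb, with rings on the 21 genes that passed in Tyrobp-KO. Ringed genes lie on both sides of Tyrobp and include Ryr1, Nudt19, Zfp14, Dmkn, Cd33 and Arhgap33os.

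**Figure D5:**
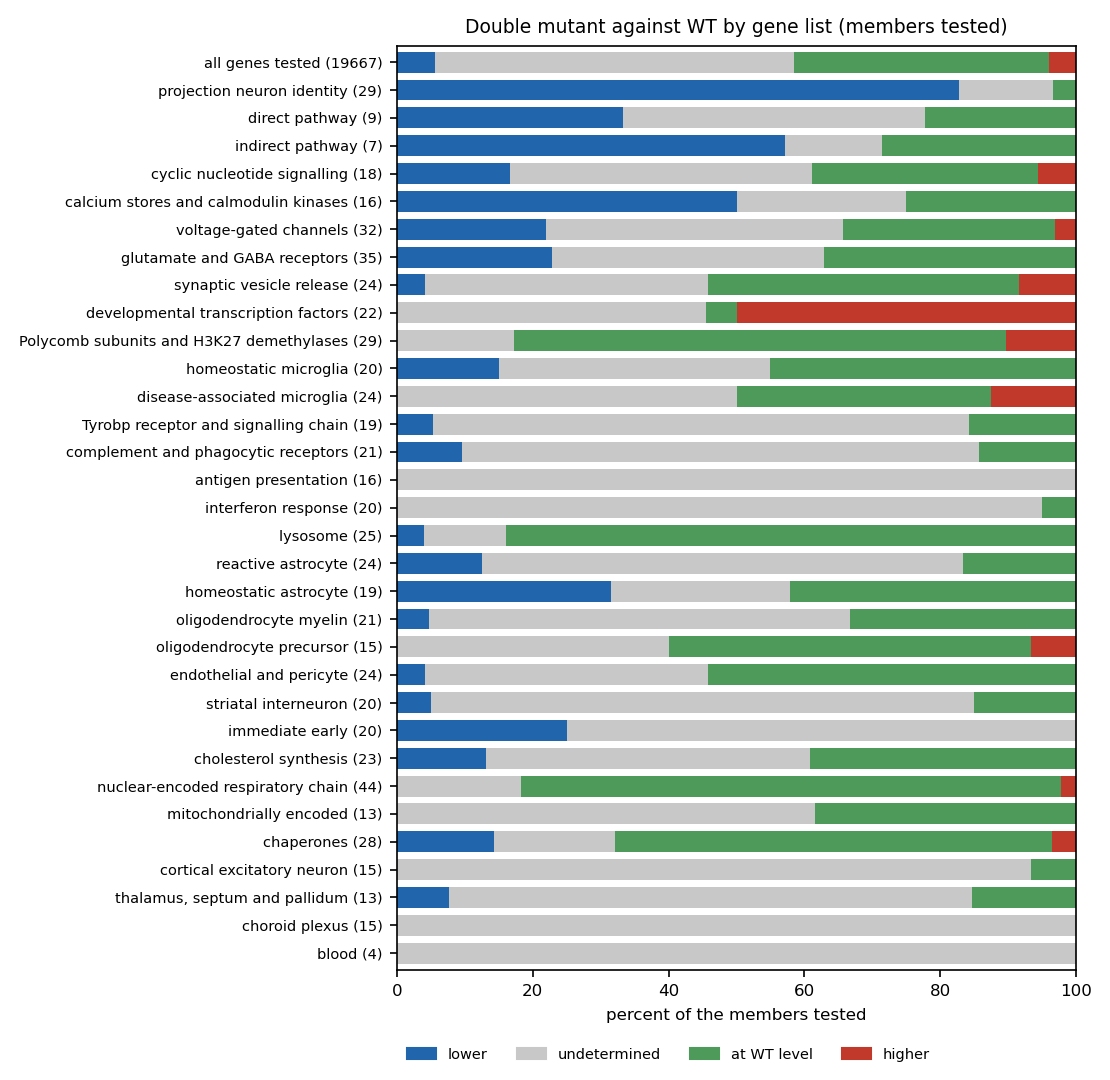
Share of the members tested that were lower, undetermined, at the WT level or higher in the double mutant against WT, for each of 32 gene lists and for all 19667 genes, with the number tested in parentheses. Projection neuron identity has the highest share lower (24 of 29), and the lysosome and nuclear-encoded respiratory chain lists are mostly at the WT level (21 of 25 and 35 of 44).

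Markers of neighbouring tissue gave few calls, and their part in the results above was not tested. All 15 choroid plexus genes were undetermined, each with a positive log2 fold change (median 1.69), led by Ttr with 18.3, 28.6 and 55.2 CPM in WT and 21.7, 104 and 516 CPM in the double mutant. Of 15 cortical excitatory neuron genes 14 were undetermined and 1 was at the WT level (median 0.24). All 4 blood genes tested were undetermined. Of 13 genes of thalamus, septum and pallidum 1 was lower and 10 were undetermined, where 5.54% and 52.9% of all genes were. With the cortical level as a covariate, 2523 genes passed in the double mutant against WT. No gene passed in the test of whether the double mutant's difference from WT depended on sex (0 by edgeR's quasi-likelihood test and 0 by limma-voom), while 815 and 823 genes had an unadjusted p under 0.05. Without the 3 double mutants high in choroid plexus genes, Sfxn1, Pde7b, Phf1, Tgfbr1, Ctsl, Gpnmb, Lag3, Glul, Egr2, Cyp46a1, Idi1 and Cyc1 missed the threshold, with adjusted p from 0.0527 for Lag3 to 0.158 for Phf1. Fitted alone, the 3 males a side gave 752 genes and the 3 females a side gave 240.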

How the data were processed

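RNA of the striatum of one hemisphere was sequenced from 24 mice, 6 per genotype. The deposited table holds raw read counts per gene, made by the authors with STAR and featureCounts, per the submitters' processing notes, which also name DESeq2 and the build GRCh38. The table's coordinates are mouse: 53499 of 54409 shared identifiers (98.3% of the shared set) have the GRCm38 position of GENCODE M21. The sources used here give neither versions nor the use of strand. Counts were fitted with edgeR 4.0.16 (R 4.3.3; TMM, filterByExpr, robust quasi-likelihood) over all 24 libraries with genotype and sex, and p-values were Benjamini-Hochberg adjusted over the 19667 genes tested. SE is the absolute log2 fold change over the square root of F. Within this design the biological coefficient of variation was 16.2%. On simulated data with known changes, 62.7% of genes changed by 0.5 (log2) were called, 88.1% of those changed by 1 and 95.5% of those changed by 2. Nothing states that replicate numbers pair animals.

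The genotypes compared, the gene lists and the naming rule were chosen with earlier results of these data known. Named were Tyrobp, Htt, the genes of smallest p outside and inside 15 Mb around Tyrobp, up to 4 members of each of 32 lists, and those differing from or called in Q175 heterozygotes. Others are said to be chosen after their values were seen. Some genes that the rule names are not reported here. Alternatives were limma-voom (limma 3.58.1), DESeq2 1.42.0, other scalings and filters, no sex term, only the 12 libraries, each sex alone, other margins and each library left out. Those without the libraries high in choroid plexus genes and with a cortical covariate were chosen after seeing the data. Counting intervals cover counting error only.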

Additional observations from a re-analysis of the deposited data

Results flagged for a closer look

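Of 236 groups of 6 libraries examined for the genes named, 14 held a library whose gap to its neighbour exceeded Dixon's critical share of the group's range. Chance alone marks about 1 group in 20.

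Several were low values in WT replicate 5, for striatal genes: Scn4b at 1243 CPM (next 1790), Adora2a at 230.1 CPM (next 334.9), Chrm4 at 45.55 CPM (next 61.25) and Cyp46a1 at 202 CPM (next 226.8). That library also had the lowest summed projection neuron level of WT (17200 CPM) and the highest cortical level (1534 CPM). WT replicate 6 had Htt at 208.6 CPM (next 226.4), Ctsl at 74.15 CPM (next 61.99) and Ttr at 55.15 CPM (next 30.67), and WT replicate 4 had Cyc1 at 72.84 CPM (next 88.87). In WT replicate 6 Hoxc4 stood at 0.09422 CPM, and in WT replicate 5 Hoxc6 stood at 0.03598 CPM, each against 0 in all other WT libraries.

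In the double mutant, replicate 6 had Clec7a at 0.8353 CPM (next 0.3072) and Hsph1 at 382.2 CPM (next 344.7), replicate 3 had Hsp90b1 at 209.7 CPM (next 223.4), and replicate 5 had Gm36737 at 1.742 CPM (next 1.463).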

How the results depend on the processing

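No result that passed the threshold changed sign under any alternative run. Of the alternatives for named genes, 2518 kept the call, 179 lost it and 14 gained it. No paired analysis was possible because the labels give no replicate numbers that tie animals across genotypes. Each sex alone leaves 3 libraries a side. Males gave 752 genes in the double mutant against WT (1.14% of genes tested higher and 2.64% lower), 501 shared in direction with Q175 heterozygotes, 7 at the WT level among those called in Q175, 759 in Q175 against WT, 65 in Tyrobp-KO and 11 against Q175. Females gave 240 (0.39% higher and 0.825% lower), 124, 1, 187, 8 and 11 for the same measures. Without the 3 double mutants high in choroid plexus genes the counts were 807 (1.4% higher and 2.5% lower), 599 shared in direction of 1728 in Q175 against WT, and 20 against Q175. Q175 replicates 3 and 5, with choroid plexus sums of 4380 and 493.8 CPM, were kept in that run. DESeq2 gave 52 genes against Q175. The 267 Q175 genes at the WT level became 139 with no filter, 95 with only the 12 libraries, 448 with the cortical covariate, 66 at a margin of 0.2 and 457 at 0.5, and the genes at the WT level became 4005 at 0.2. With 1 library left out, the calls ranged from 1353 (without double mutant replicate 4) to 1988 (without WT replicate 5), with 2.68% to 4.06% higher, 4.05% to 5.94% lower, 6895 to 7489 genes at the WT level, 940 to 1342 shared in direction and 138 to 292 Q175 genes at the WT level. The cause of these moves was not tested, beyond fewer libraries where libraries were left out.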
